A study of Homo sapiens with 9 samples.

Results

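The YAP and TEAD module was followed through its 2 coactivators YAP1 and WWTR1 (the gene of TAZ), the DNA-binding factor TEAD1, and 7 genes that are widely read as their targets: CYR61 (now CCN1), CTGF (now CCN2), ANKRD1, AMOTL2, AJUBA, LATS2 and NUAK2. The 10 members were found by gene symbol among the 58929 genes of the count table, where each symbol occurred once, and 9 of the 10 passed the filter on low counts, against 16065 genes in all. RNA sequencing of polyadenylated RNA was done on FaDu, a human cell line from a squamous carcinoma of the hypopharynx, labelled as wild type. YKL-5-124, a covalent inhibitor of the transcription and cell cycle kinase CDK7, was given at 250 nM to 3 cultures, samuraciclib, an ATP-competitive CDK7 inhibitor, at 250 nM to 3 more, and DMSO, the vehicle, to the remaining 3. The treatment protocol gives 48 h of exposure and the design text 72 h. A single cell line was used, all 9 libraries carry 1 batch label, and the DMSO libraries serve as the shared reference of both inhibitors.

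YAP and TAZ have no DNA-binding domain and reach their genes through the TEAD factors. The Hippo kinases MST1 and MST2 (STK4 and STK3) activate LATS1 and LATS2, which phosphorylate YAP and TAZ and hold them in the cytoplasm, so the activity of the module is set largely by where the proteins are and is not read from their mRNA alone. Several targets, among them LATS2, AMOTL2 and AJUBA, encode regulators of the same pathway. In squamous carcinomas YAP and TAZ are known for driving proliferation and the contact with matrix and neighbouring cells.

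TEAD factors bind the element GGAATG, read as CATTCC on the other strand. RefSeq promoter sequences (GRCh38.p14) were matched for 8 of the 10 members, in 11 windows of 250 bases before an annotated start; CYR61 and TEAD1 had no entry. The element occurred at least once in 6 of the 8 matched members, and in 6 of the 11 windows. Among 34943 such windows of all genes, 11.9% held 1 or more matches, 0.942% held 2 or more and 0.083% held 3 or more. Windows are shown for the members that held a match and whose expression differed in a comparison below. Each match is in capitals, and base -1 lies just before the start. CTGF (chr6:131951373-131951622, minus strand) carried 3 matches, starting at -169, -104 and -95. NUAK2 (chr1:205321746-205321995, minus strand) carried 1 at -197 on the opposite strand and 1 at -18. AMOTL2, at the second of its 2 annotated starts (chr3:134374448-134374697, minus strand), carried 1 at -69 on the opposite strand. YAP1 (chr11:102110197-102110446, plus strand) carried 1 at -162.
CTGF: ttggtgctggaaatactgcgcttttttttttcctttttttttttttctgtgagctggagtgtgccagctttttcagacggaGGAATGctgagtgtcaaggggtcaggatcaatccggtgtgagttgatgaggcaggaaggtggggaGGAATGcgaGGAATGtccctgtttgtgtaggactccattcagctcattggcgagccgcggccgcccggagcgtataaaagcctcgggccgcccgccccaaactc
NUAK2: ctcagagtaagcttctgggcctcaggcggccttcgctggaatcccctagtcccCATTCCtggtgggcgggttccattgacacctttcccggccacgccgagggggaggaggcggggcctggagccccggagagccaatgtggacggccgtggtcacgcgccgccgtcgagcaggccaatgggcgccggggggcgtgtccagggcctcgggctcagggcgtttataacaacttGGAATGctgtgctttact
AMOTL2: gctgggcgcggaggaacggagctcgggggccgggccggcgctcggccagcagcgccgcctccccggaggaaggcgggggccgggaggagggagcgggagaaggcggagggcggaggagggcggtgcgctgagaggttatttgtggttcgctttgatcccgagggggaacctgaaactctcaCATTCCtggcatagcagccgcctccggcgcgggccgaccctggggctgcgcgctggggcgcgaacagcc
YAP1: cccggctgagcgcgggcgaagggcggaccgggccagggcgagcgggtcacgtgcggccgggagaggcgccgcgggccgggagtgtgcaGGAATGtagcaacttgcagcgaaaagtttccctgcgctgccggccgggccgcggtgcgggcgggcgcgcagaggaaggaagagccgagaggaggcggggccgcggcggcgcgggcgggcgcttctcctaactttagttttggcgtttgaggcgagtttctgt
ANKRD1 held 2 matches, at -220 and -128, AJUBA 1 at -59 before the second of its 2 starts, and the windows of WWTR1 and LATS2 none. A match describes the letters in the window and was not tested as a binding site.

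The libraries held 18096180 to 28018126 counts. Values are counts per 1000000 counts of the library (CPM) after trimmed mean of M values (TMM) scaling, which corrects for library composition, and a change means an adjusted p under 0.05 in the edgeR quasi-likelihood test. A gene was called when its log2 fold change also passed 0.5 in size, the threshold of the study. All 10 squamous epithelial markers were expressed, with summed levels of 10968 to 11710 CPM in YKL-5-124, 11628 to 12229 CPM in samuraciclib and 10554 to 10837 CPM in DMSO libraries. Summed fibroblast, endothelial and leukocyte markers stayed between 2.52 and 32.1 CPM in every library. In 3 libraries, DMSO 3, samuraciclib 2 and YKL-5-124 2, the 7SL RNA RN7SL2 stood at 24.9 to 59.3 CPM, against 696 to 981 CPM in the other 6. DMSO 3 was also the highest DMSO library for 8 of the 10 members, and calls named here that were lost in the 6 remaining libraries are given with both values. In bulk RNA a smaller number of expressing cells cannot be told apart from less RNA per cell.

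Per length of gene model, CYR61, which encodes a secreted matricellular protein, was the most abundant member. Its mean over the 9 libraries was 309 CPM per kb, above 99.5% of the tested genes. YAP1 came next at 68.2 CPM per kb, above 96.3% of the tested genes. CTGF, the other secreted target, stood at 31.4 CPM per kb, AMOTL2 at 23.8, TEAD1 at 15.1, WWTR1 at 12.9 and NUAK2 at 9.88. LATS2 followed at 4.85 CPM per kb, and AJUBA at 0.521 and ANKRD1 at 0.170 were barely expressed. This order was the same in all 3 groups, and the ranges of neighbours over the 3 libraries overlapped only for WWTR1 and NUAK2 in DMSO.

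**Figure D1:**
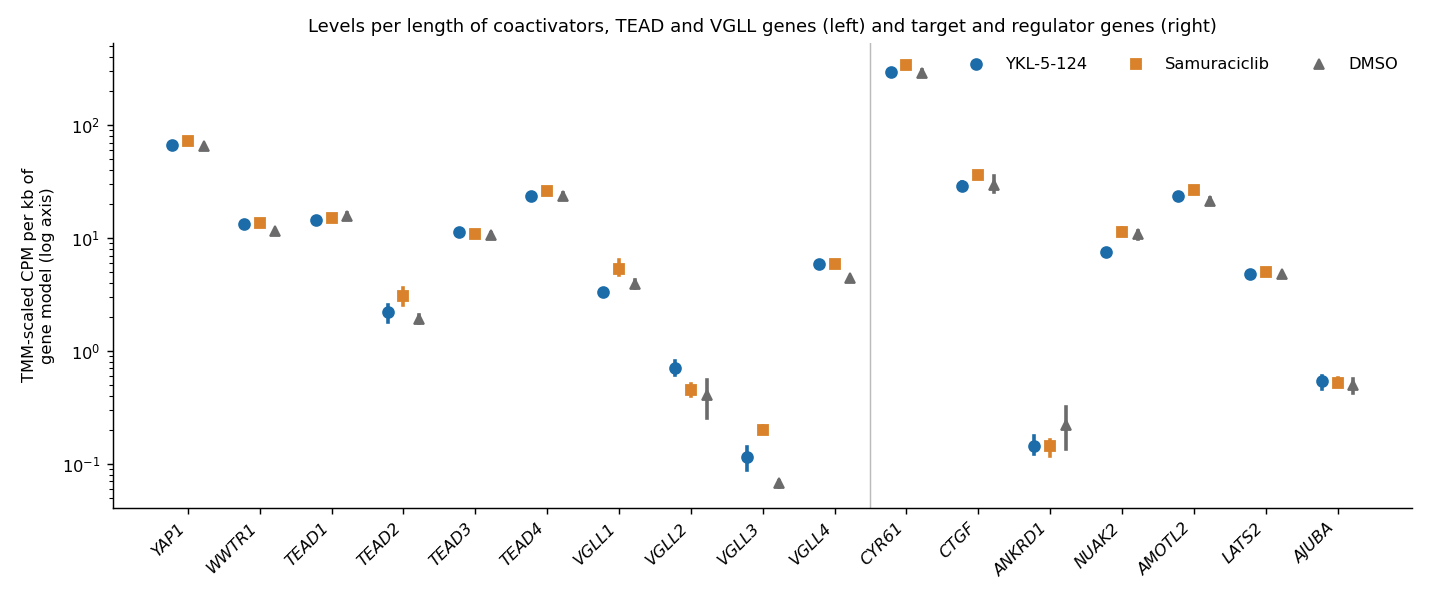
Levels per length, as TMM-scaled CPM per kb of gene model on a log axis, of coactivator, TEAD and VGLL genes (left) and of target and regulator genes (right). Symbols are means of 3 libraries, vertical lines run from the lowest to the highest library, and CYR61 at about 309 CPM per kb lies above all other genes shown.

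YAP1 (chr11:102110461-102233423, plus strand) was higher in samuraciclib-treated cells and did not differ detectably with YKL-5-124. It measured 423, 415 and 413 CPM in the YKL-5-124 libraries, 467, 456 and 459 CPM in the samuraciclib libraries, and 406, 406 and 421 CPM in the DMSO libraries. All samuraciclib libraries lay above all others, while the YKL-5-124 and DMSO libraries overlapped. Samuraciclib raised YAP1 1.12-fold over DMSO, a log2 change of 0.17 ± 0.044 (SE; edgeR adjusted p = 0.00463). With YKL-5-124 the log2 change against DMSO was 0.02 ± 0.044 (adjusted p = 0.702), with a 95% interval of -0.070 to 0.114.

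WWTR1 (chr3:149517235-149736714, minus strand) was higher with both inhibitors. It measured 112, 114 and 110 CPM in the YKL-5-124 libraries, 117, 115 and 112 CPM in the samuraciclib libraries, and 95.4, 100 and 98.1 CPM in the DMSO libraries. Every treated library of either kind exceeded every DMSO library. The log2 change against DMSO was 0.20 ± 0.045 with YKL-5-124 (adjusted p = 0.00141) and 0.23 ± 0.045 with samuraciclib (adjusted p = 0.000409). Between the inhibitors the log2 difference, YKL-5-124 minus samuraciclib, was -0.03, with a 95% interval of -0.127 to 0.060. The ratio of YAP1 to WWTR1 per length was 4.86 to 5.05 in YKL-5-124, 5.31 to 5.46 in samuraciclib and 5.42 to 5.73 in DMSO libraries, lowest in the YKL-5-124 libraries without overlap. In the current gene annotation 10.1% of the exonic bases of YAP1 and 9.05% of those of WWTR1 are shared with genes on the opposite strand, and the strand setting of the counting is not given in the sources used here.

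TEAD1 (chr11:12674591-12944483, plus strand) measured 155, 149 and 142 CPM in the YKL-5-124 libraries, 160, 160 and 149 CPM in the samuraciclib libraries, and 154, 161 and 170 CPM in the DMSO libraries. The groups overlapped. The log2 change against DMSO was -0.12 ± 0.051 with YKL-5-124 (adjusted p = 0.0535) and -0.05 ± 0.051 with samuraciclib (adjusted p = 0.431), and neither passed the test. The YKL-5-124 value lay close to the threshold and passed in 5 of 16 alternatives. It passed without DMSO 1 (adjusted p = 0.0268) or without YKL-5-124 1 (adjusted p = 0.0394), and by DESeq2 (adjusted p = 0.0482), with RLE scaling (adjusted p = 0.0498) and with no filter (adjusted p = 0.0488). The other 11 did not pass, among them library size alone (0.007, adjusted p = 0.913), the fit without DMSO 3 (-0.08, adjusted p = 0.231) and the 6 libraries without low 7SL RNA (-0.08, adjusted p = 0.248).

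Per length of gene model, TEAD1 was not the leading TEAD gene of these cells. In CPM the order was reversed. TEAD1 averaged 149 CPM in YKL-5-124, 156 in samuraciclib and 162 in DMSO libraries, and TEAD4 53.2, 59.3 and 54.0. The ranking thus depends on the gene-model lengths. TEAD4 made up 45.5% of the summed TEAD level per length in YKL-5-124, 47.3% in samuraciclib and 45.7% in DMSO cells. TEAD1 contributed 28.1%, 27.5% and 30.3% in the same order of groups, and TEAD3 22.2%, 19.6% and 20.4%. TEAD2 was the smallest at 4.28%, 5.56% and 3.68%, and it alone among the 4 TEAD genes was called. TEAD2 averaged 9.15 ± 1.53 CPM with samuraciclib and 5.71 ± 0.458 CPM with DMSO (SD, n = 3 each), a log2 change of 0.67 ± 0.15 (edgeR adjusted p = 0.00103). With YKL-5-124 TEAD2 averaged 6.57 ± 1.15 CPM, 0.20 ± 0.15 above DMSO on the log2 scale (adjusted p = 0.298). Between the inhibitors TEAD2 was lower with YKL-5-124 by -0.48 ± 0.14 (adjusted p = 0.0207), under the fold threshold. This difference did not pass the test without samuraciclib 1 (adjusted p = 0.131) or without YKL-5-124 1 (adjusted p = 0.1). In the fit reported here TEAD3 and TEAD4 passed the test in no comparison, TEAD4 coming nearest with samuraciclib over DMSO at 0.14 ± 0.057 (adjusted p = 0.061) and with YKL-5-124 over samuraciclib at -0.16 ± 0.057 (adjusted p = 0.0536). These values lay near the threshold: TEAD4 passed with samuraciclib over DMSO without DMSO 1 (adjusted p = 0.0463), without samuraciclib 2 (adjusted p = 0.0427), with library size alone (adjusted p = 0.0122) and among genes averaging at least 50 counts (adjusted p = 0.0283). Between the inhibitors TEAD4 passed without samuraciclib 2 (adjusted p = 0.0421), without YKL-5-124 3 (adjusted p = 0.0414) and with RLE scaling (adjusted p = 0.0426). Other fits moved TEAD4 further from the threshold. With samuraciclib over DMSO these were the fit without DMSO 3 (adjusted p = 0.176) and DESeq2 (adjusted p = 0.108). Between the inhibitors they were library size alone (adjusted p = 0.306) and the fit without YKL-5-124 2 (adjusted p = 0.168), among others. TEAD3 passed with YKL-5-124 over DMSO with library size alone (0.24, adjusted p = 0.00729).

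The VGLL genes encode cofactors that compete with YAP and TAZ for the TEAD factors. VGLL4, a repressor of TEAD-driven transcription, was higher by 0.41 ± 0.057 on the log2 scale with YKL-5-124 (adjusted p = 1.11e-05) and by the same 0.41 ± 0.057 with samuraciclib (adjusted p = 1.27e-05). VGLL3 rose by 0.78 ± 0.26 with YKL-5-124 (adjusted p = 0.0187) and by 1.56 ± 0.24 with samuraciclib (adjusted p = 4.09e-05), from very low levels of 15 to 59 counts a library. Without DMSO 2, the YKL-5-124 call for VGLL3 was lost (adjusted p = 0.0574), as it was without YKL-5-124 2 (adjusted p = 0.119), in the 6 libraries without low 7SL RNA (0.63, adjusted p = 0.182) and by DESeq2 (adjusted p = 0.0806). VGLL2, at 10 to 46 counts, was called higher with YKL-5-124 (0.78 ± 0.29, adjusted p = 0.0328), a call lost without any of DMSO 1, DMSO 3, YKL-5-124 1 and YKL-5-124 2 (adjusted p = 0.126, 0.0723, 0.0598 and 0.118). It was also lost in the 6 libraries (0.68, adjusted p = 0.189) and by DESeq2 (adjusted p = 0.114). VGLL1 averaged 5.09 ± 0.319 CPM with YKL-5-124 and 8.15 ± 1.53 CPM with samuraciclib, a log2 difference of -0.67 ± 0.14 (adjusted p = 0.00186). Over DMSO it was higher with samuraciclib by 0.42 ± 0.14 (adjusted p = 0.0188), under the fold threshold. That change did not pass the test without DMSO 1, DMSO 3 or samuraciclib 3 (adjusted p = 0.0757, 0.051 and 0.139). The list of 10 coactivator, TEAD and VGLL genes thus gave 2 higher calls and 0 lower ones with YKL-5-124, and likewise 2 and 0 with samuraciclib. Higher calls made up 11.9% of all tested genes with YKL-5-124 and 8.17% with samuraciclib, and lower calls 9.93% and 9.55%. Between the inhibitors 0 of the 10 were called higher with YKL-5-124 and 2 lower, where 4.46% and 2.46% of all genes were. These were VGLL1 and VGLL3 (-0.79 ± 0.22, adjusted p = 0.0143). The VGLL3 call was lost without samuraciclib 1 (adjusted p = 0.058) or YKL-5-124 3 (adjusted p = 0.074), and by DESeq2 (adjusted p = 0.0503). By adjusted p alone 4 were lower, YAP1 and TEAD2 besides, where 13.2% of all genes were.

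**Figure D2:**
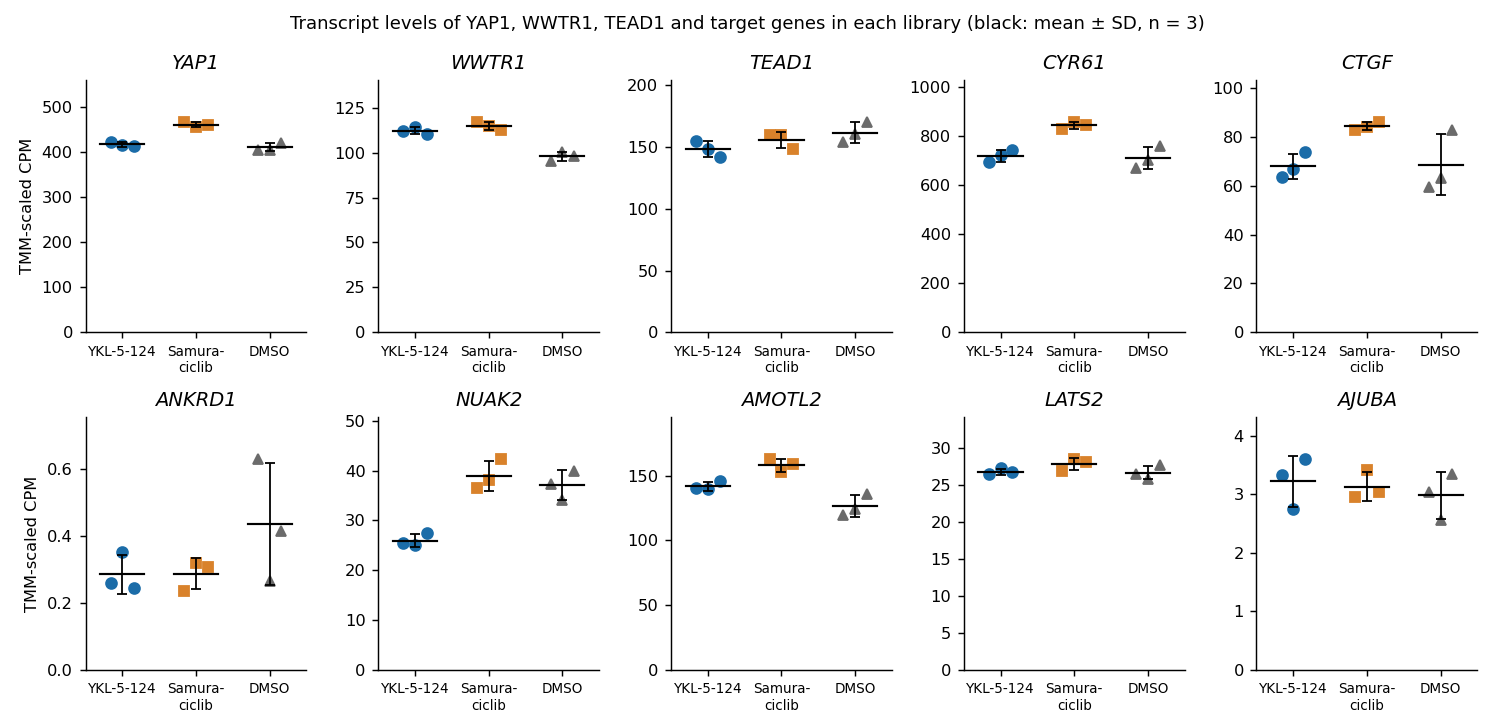
TMM-scaled CPM of each member in each library, with a linear axis starting at 0 for each gene. Blue circles are YKL-5-124, orange squares samuraciclib and grey triangles DMSO libraries, and black lines give the mean and SD of 3 libraries. NUAK2 is lower in the 3 YKL-5-124 libraries, at 25.0 to 27.4 CPM, than in all others.

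CYR61 and CTGF, the targets most often used as readouts of YAP and TAZ activity, were each higher with samuraciclib, and neither differed detectably between YKL-5-124 and DMSO. CYR61 (chr1:85580761-85583962, plus strand) measured 694, 724 and 743 CPM in the YKL-5-124 libraries, 830, 859 and 845 CPM in the samuraciclib libraries, and 671, 703 and 762 CPM in the DMSO libraries. The samuraciclib libraries lay above all others, with no overlap. Samuraciclib raised CYR61 1.19-fold over DMSO (log2 change 0.25 ± 0.051, edgeR adjusted p = 0.00073). The YKL-5-124 change against DMSO was 0.02 ± 0.051 (adjusted p = 0.814), with a 95% interval of -0.091 to 0.124. CYR61 was 1.17-fold lower with YKL-5-124 than with samuraciclib, a log2 difference of -0.23 ± 0.051 (adjusted p = 0.00333).

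CTGF (chr6:131948176-131951373, minus strand) measured 63.4, 66.8 and 73.6 CPM in the YKL-5-124 libraries, 82.7, 84.0 and 86.1 CPM in the samuraciclib libraries, and 59.6, 63.2 and 82.7 CPM in the DMSO libraries. DMSO 3 lay just below the lowest samuraciclib library, and the other DMSO libraries well below it. The log2 change with samuraciclib was 0.29 ± 0.089 over DMSO (adjusted p = 0.0123), with YKL-5-124 -0.02 ± 0.090 (adjusted p = 0.870). These values depended on the DMSO libraries used. Without DMSO 3 the samuraciclib change was 0.46 (adjusted p = 3.4e-05), and the test was no longer passed without DMSO 1 (0.20, adjusted p = 0.0897) or without DMSO 2 (0.23, adjusted p = 0.0791). Without DMSO 3 the YKL-5-124 change became 0.14 (adjusted p = 0.0904). Leaving out all 3 low-7SL libraries gave changes of 0.46 with samuraciclib (adjusted p = 5.22e-06) and 0.16 with YKL-5-124 (adjusted p = 0.0692). CTGF was 1.24-fold lower with YKL-5-124 than with samuraciclib (-0.31 ± 0.089, adjusted p = 0.0156), a difference lost without YKL-5-124 1 (-0.27, adjusted p = 0.0724). In the current annotation 11.9% of the exonic bases of CTGF are shared with an antisense gene, which had 0 to 1 counts.

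The remaining CCN genes gave no common direction. Of 6 family members 4 passed the filter, and beside CYR61 and CTGF these were NOV (CCN3) and WISP2 (CCN5). NOV averaged 4.30 ± 0.912 CPM with YKL-5-124, 2.22 ± 0.219 CPM with samuraciclib and 3.98 ± 0.771 CPM with DMSO. It was called lower with samuraciclib than with DMSO (-0.86 ± 0.20, adjusted p = 0.00155). WISP2, at 8 to 24 counts, was called higher with YKL-5-124 than with DMSO (0.89 ± 0.35, adjusted p = 0.0441), a call lost without any of DMSO 2, DMSO 3 and the 3 YKL-5-124 libraries (adjusted p = 0.0745 to 0.192), in the 6 libraries without low 7SL RNA (0.67, adjusted p = 0.270) and by DESeq2 (adjusted p = 0.181).

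NUAK2, a kinase of the AMPK-related family and a target that is known to feed back on YAP, was the only member called in any comparison. NUAK2 (chr1:205302059-205321791, minus strand) measured 25.4, 25.0 and 27.4 CPM in the YKL-5-124 libraries, 36.5, 38.1 and 42.3 CPM in the samuraciclib libraries, and 37.3, 34.0 and 40.0 CPM in the DMSO libraries. The YKL-5-124 libraries lay below all others, and the samuraciclib and DMSO libraries overlapped. NUAK2 was 1.43-fold lower with YKL-5-124 than with DMSO, a log2 change of -0.52 ± 0.076 (edgeR adjusted p = 1.82e-05). Against samuraciclib it was also lower with YKL-5-124 (-0.59 ± 0.076, adjusted p = 2.89e-05). With samuraciclib the change against DMSO was 0.07 ± 0.074 (adjusted p = 0.498), with a 95% interval of -0.090 to 0.222. The value against DMSO stood near the fold threshold: it was -0.46 without DMSO 3 (adjusted p = 0.000239), -0.49 without YKL-5-124 2 (adjusted p = 0.000137) and -0.43 in the 6 libraries without low 7SL RNA (adjusted p = 0.000323), none of which is a call.

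AMOTL2, an angiomotin-family protein that binds YAP at junctions, was higher with both inhibitors. AMOTL2 (chr3:134355874-134375479, minus strand) measured 140, 140 and 146 CPM in the YKL-5-124 libraries, 163, 153 and 159 CPM in the samuraciclib libraries, and 119, 124 and 136 CPM in the DMSO libraries. The 3 groups did not overlap. AMOTL2 rose 1.25-fold over DMSO with samuraciclib (log2 change 0.32 ± 0.051, adjusted p = 5.33e-05) and 1.12-fold with YKL-5-124 (0.16 ± 0.051, adjusted p = 0.0126). The YKL-5-124 change did not pass the test without DMSO 1 (0.12, adjusted p = 0.0879) or without DMSO 2 (0.15, adjusted p = 0.0575).

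LATS2 and AJUBA did not change detectably. LATS2 (chr13:20973032-21061547, minus strand), the kinase that phosphorylates YAP and TAZ, measured 26.4, 27.2 and 26.7 CPM in the YKL-5-124 libraries, 26.9, 28.4 and 28.0 CPM in the samuraciclib libraries, and 26.5, 25.8 and 27.6 CPM in the DMSO libraries. It was the steadiest member, with a ratio of 1.10 between its highest and lowest library. The 95% intervals against DMSO ran from -0.134 to 0.146 with YKL-5-124 and from -0.081 to 0.199 with samuraciclib on the log2 scale.

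AJUBA (chr14:22971174-22982642, minus strand), a LIM protein that restrains LATS kinases, measured 3.33, 2.74 and 3.60 CPM in the YKL-5-124 libraries, 2.95, 3.42 and 3.03 CPM in the samuraciclib libraries, and 3.03, 2.56 and 3.35 CPM in the DMSO libraries. These are 48 to 89 counts a library, and the intervals were wide: -0.268 to 0.456 with YKL-5-124 and -0.302 to 0.426 with samuraciclib. A readthrough gene with 0 counts spans 96.7% of AJUBA but shares 0.85% of its exonic bases.

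ANKRD1 (chr10:90912096-90921276, minus strand), an ankyrin-repeat protein used as a target readout in many cell types, had 5 to 11 counts in each library and was not tested. It stood at 0.243 to 0.353 CPM with YKL-5-124, 0.234 to 0.319 CPM with samuraciclib and 0.266 to 0.630 CPM with DMSO. The groups overlapped, and a difference was not detectable at this depth.

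**Figure D3:**
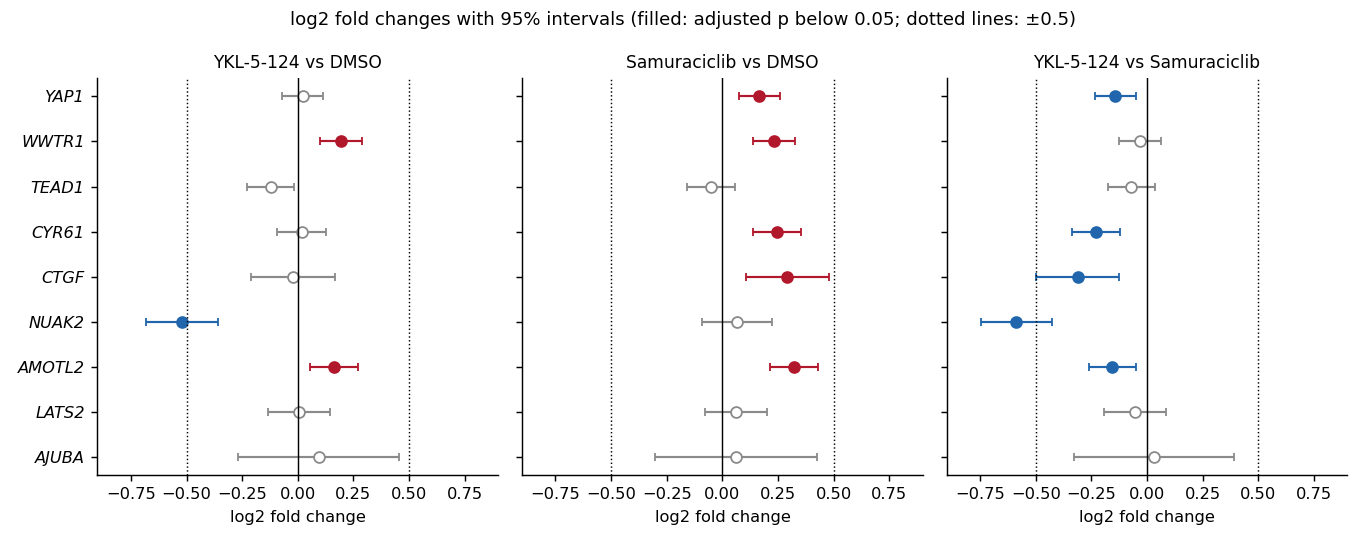
log2 fold changes of the 9 tested members in 3 comparisons, the first group of each title over the second, with 95% intervals. Filled red or blue symbols passed an adjusted p of 0.05 and open grey ones did not. Only NUAK2 passes the dotted line at -0.5, at -0.52 against DMSO and -0.59 against samuraciclib.

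Counted over the members, the changes in YKL-5-124 against DMSO were at most 1.43-fold in the fit reported here. With only 9 tested members, their counts can be set only coarsely beside the shares of all genes. Of 9 tested members, 0 were called higher and 1, NUAK2, was called lower, against 11.9% called higher and 9.93% called lower of all 16065 tested genes, or 21.8% in either direction. With no fold threshold 2 were higher (WWTR1 and AMOTL2) and 1 lower, where 24.1% and 25.2% of all genes were, 49.3% together. The libraries of the groups did not overlap for 3 of 9 members, against 56.8% of all genes. The median log2 change of the members was 0.016, against 0.014 for all tested genes. Without DMSO 3, without YKL-5-124 2 and in the 6 libraries without low 7SL RNA, 0 members were called.

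Samuraciclib against DMSO gave 0 called members by edgeR and 0 by DESeq2, with 5 at an unadjusted p under 0.05, against 17.7% of all tested genes called in either direction, 8.17% higher and 9.55% lower. By adjusted p alone 5 of 9 members were higher, YAP1, WWTR1, CYR61, CTGF and AMOTL2, and 0 were lower, where 21.0% of all genes were higher and 23.1% lower, 44.1% together. The libraries of the groups did not overlap for 5 of 9 members, against 52.9% of all genes. The median log2 change was 0.17 for the members and 0.0012 for all tested genes. Each of the 5 changes was at most 1.25-fold.

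The inhibitors were compared with each other in 1 pair of groups at the same dose of 250 nM and the same time. With YKL-5-124, 1 of 9 members, NUAK2, was called lower than with samuraciclib and 0 were called higher, against 2.46% and 4.46% of all tested genes, 6.92% together. By adjusted p alone 5 were lower with YKL-5-124 (YAP1, CYR61, CTGF, AMOTL2 and NUAK2) and 0 higher, where 13.2% and 11.8% of all genes were. The groups did not overlap for the same 5 members, against 38.7% of all genes (19.5% higher and 19.2% lower). YAP1 differed by -0.14 ± 0.044 (adjusted p = 0.0222) and AMOTL2 by -0.16 ± 0.051 (adjusted p = 0.0306). The YAP1 difference was lost without samuraciclib 1 (adjusted p = 0.0858) or YKL-5-124 3 (adjusted p = 0.0675), and that of AMOTL2 without samuraciclib 1 (adjusted p = 0.122), samuraciclib 3 (adjusted p = 0.063), YKL-5-124 1 (adjusted p = 0.0848) or YKL-5-124 2 (adjusted p = 0.0772). For the 4 members that did not pass, the 95% intervals of the log2 difference were -0.127 to 0.060 for WWTR1, -0.177 to 0.036 for TEAD1, -0.192 to 0.087 for LATS2 and -0.328 to 0.391 for AJUBA.

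Scaling touched these small differences. The TMM factors were 1.04 to 1.05 in YKL-5-124, 0.992 to 1.01 in samuraciclib and 0.949 to 0.967 in DMSO libraries. With library size alone, the median log2 change of all genes with YKL-5-124 over DMSO moved to 0.14, and YAP1 (0.15, adjusted p = 0.00587) and CYR61 (0.15, adjusted p = 0.0175) then passed the test, at about that median. Between the inhibitors YAP1 (-0.07, adjusted p = 0.207), CTGF (-0.24, adjusted p = 0.0526) and AMOTL2 (-0.09, adjusted p = 0.207) then no longer passed it. The share of higher genes among all calls was 54.5% for YKL-5-124 over DMSO, 46.1% for samuraciclib over DMSO and 64.5% for YKL-5-124 over samuraciclib. It became 72.7%, 57.1% and 79.5% with library size alone.

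In the 22-gene target signature, which contains CYR61, CTGF, ANKRD1, AMOTL2, LATS2 and NUAK2, 21 genes were tested. With YKL-5-124 against DMSO 3 were called higher and 2 lower, with a median log2 change of 0.0065. With samuraciclib against DMSO 4 were called higher and 1 lower, with a median of 0.14. Among all tested genes 21.8% were called with YKL-5-124 and 17.7% with samuraciclib in either direction. The 5 of 21 found here in each comparison were near these shares. Split by direction, the all-gene shares were 11.9% higher and 9.93% lower for YKL-5-124, and 8.17% higher and 9.55% lower for samuraciclib. Adjusted p alone gave 6 higher and 6 lower signature genes with YKL-5-124, against 24.1% and 25.2% of all genes. For samuraciclib these counts were 11 and 3, against 21.0% and 23.1%. The all-gene medians were 0.014 and 0.0012. IGFBP3, which binds insulin-like growth factors, averaged 78.1 ± 6.6 CPM with YKL-5-124, 71.3 ± 4.38 CPM with samuraciclib and 36.3 ± 0.713 CPM with DMSO. TGFB2, a TGF-beta ligand, averaged 25.0 ± 1.93 CPM with YKL-5-124, 25.6 ± 2.53 CPM with samuraciclib and 10.9 ± 1.58 CPM with DMSO. These were the 2 signature genes called higher with each inhibitor.

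CCDC80 averaged 8.80 ± 0.258 CPM with YKL-5-124, 4.78 ± 0.723 CPM with samuraciclib and 4.55 ± 0.514 CPM with DMSO. It was called higher with YKL-5-124, by 0.94 ± 0.13 over DMSO and by 0.88 ± 0.13 over samuraciclib on the log2 scale (edgeR adjusted p = 1.13e-05 and 0.000115). AXL, a receptor tyrosine kinase, averaged 261 ± 9.88 CPM with YKL-5-124, 234 ± 9.26 CPM with samuraciclib and 365 ± 16.9 CPM with DMSO. Its log2 change was -0.64 ± 0.051 with samuraciclib, a call, and -0.48 ± 0.050 with YKL-5-124, below the fold threshold (adjusted p = 1.39e-08 and 3.05e-07). CRIM1 was called higher with samuraciclib at 0.50 ± 0.045, at the threshold. RBMS3 and ARHGEF17, named after their values were seen, were the remaining calls, with 1.17 ± 0.33 in samuraciclib and -0.52 ± 0.087 in YKL-5-124. Single libraries decided the calls of CRIM1 (0.48 without DMSO 1, 0.47 without samuraciclib 1), RBMS3 (adjusted p = 0.056 without DMSO 3) and ARHGEF17 (-0.48 without DMSO 1, -0.47 without YKL-5-124 2). In the 6 libraries without low 7SL RNA, RBMS3 (0.80, adjusted p = 0.101) and ARHGEF17 (-0.48, adjusted p = 0.000428) were not called either. RBMS3 also shares 83.1% of its span with another gene model.

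Between YKL-5-124 and samuraciclib, 1 signature gene was called higher with YKL-5-124 (CCDC80) and 2 lower (NUAK2 and GADD45A), where 4.46% and 2.46% of all tested genes were. The median log2 difference was -0.15, against 0.0079 for all tested genes. GADD45A, a DNA damage and growth arrest gene, differed by -0.55 ± 0.063 (adjusted p = 9.43e-06), and by -0.47 without samuraciclib 3, under the fold threshold. By adjusted p alone 3 signature genes were higher and 9 lower with YKL-5-124, where 11.8% and 13.2% of all genes were.

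**Figure D4:**
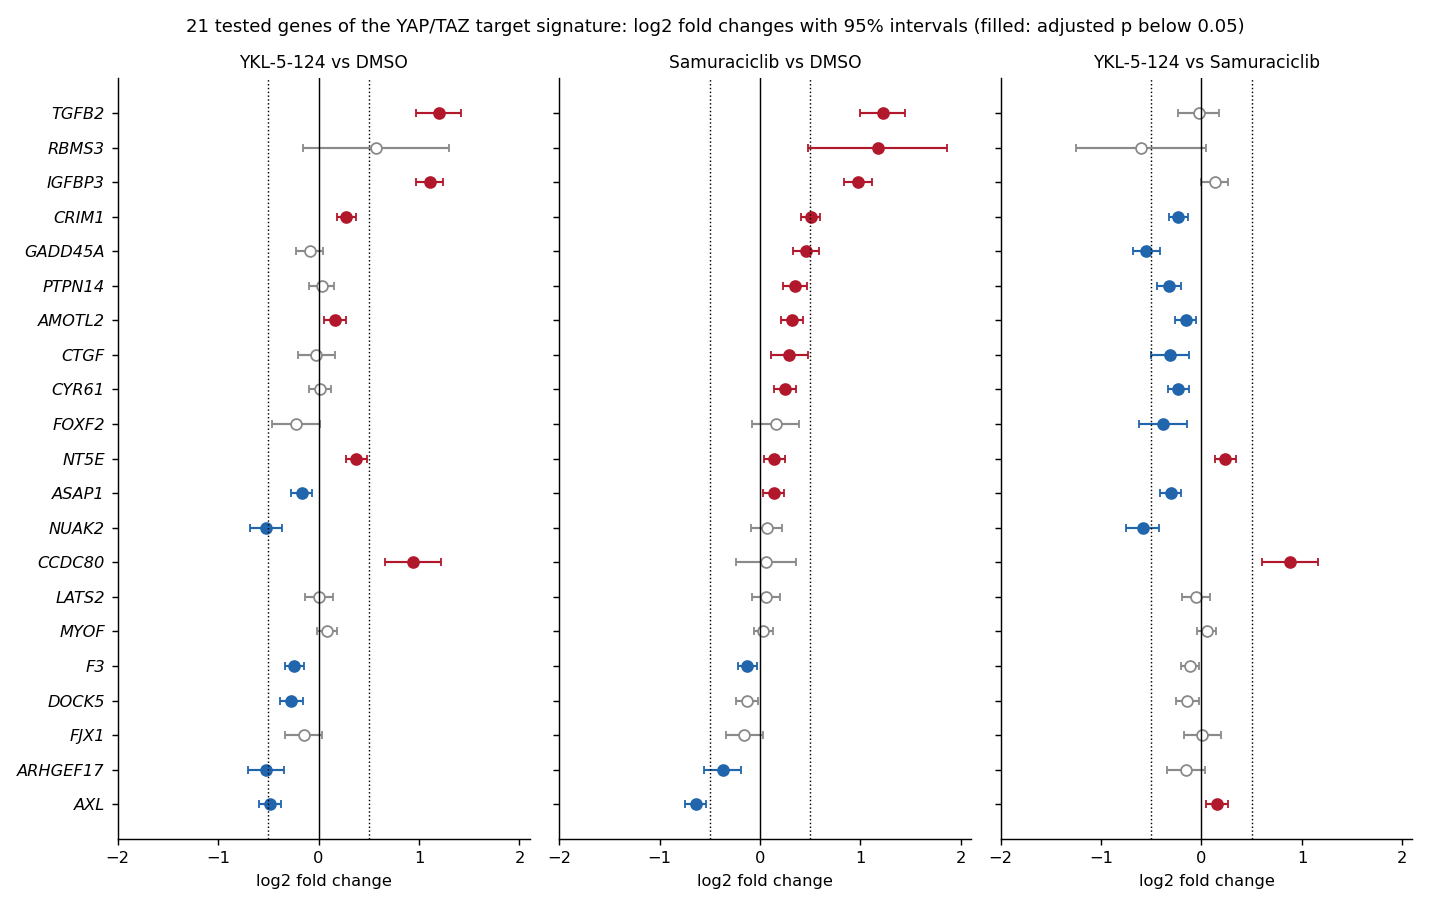
log2 fold changes with 95% intervals of the 21 tested signature genes in 3 comparisons, ordered by the samuraciclib change. Filled red or blue symbols passed an adjusted p of 0.05. TGFB2 and IGFBP3 lie above the dotted line at 0.5 with each inhibitor, and the YKL-5-124 minus samuraciclib values have a median of -0.15.

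Of 20 further reported YAP and TAZ targets, which include the member AJUBA, YKL-5-124 gave 4 higher and 2 lower calls and samuraciclib 6 higher and 2 lower calls, each against DMSO, with median log2 changes of 0.080 and 0.14. The all-gene shares were 11.9% higher and 9.93% lower with YKL-5-124, and 8.17% higher and 9.55% lower with samuraciclib. THBS1, which encodes the matrix protein thrombospondin, averaged 446 ± 14.3 CPM with YKL-5-124, 557 ± 19.9 CPM with samuraciclib and 307 ± 13.3 CPM with DMSO. EDN1, the endothelin precursor, averaged 3.71 ± 0.717 CPM with YKL-5-124, 6.64 ± 0.639 CPM with samuraciclib and 1.77 ± 0.545 CPM with DMSO. Both were called higher with each inhibitor. TGFBR2 (0.61 ± 0.053) and FSTL1 (0.71 ± 0.066) were called higher with samuraciclib. AMIGO2 (-0.59 ± 0.053) and the integrin ITGB2 (-0.54 ± 0.065) were called lower with YKL-5-124. Between the inhibitors 1 gene was called higher with YKL-5-124, CAVIN2 (1.18 ± 0.25), and 3 lower, EDN1 (-0.84 ± 0.18), FGF1 (-0.72 ± 0.25) and NUAK1 (-0.56 ± 0.10), the close relative of NUAK2. Of all tested genes 4.46% were called higher and 2.46% lower in that comparison. The FGF1 difference was lost without any of the 3 samuraciclib libraries or YKL-5-124 3 (adjusted p = 0.0518 to 0.172) and in the 6 libraries without low 7SL RNA (-0.79, adjusted p = 0.0567).

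None of the 11 genes of the Hippo kinase list, LATS2 among them, was called in any comparison by edgeR, and the changes by adjusted p alone ran in both directions. DESeq2 also called 0, and 8, 7 and 6 of the 11 had an unadjusted p under 0.05 in YKL-5-124 over DMSO, samuraciclib over DMSO and YKL-5-124 over samuraciclib. Of all tested genes 21.8%, 17.7% and 6.92% were called in these 3 comparisons, and 49.3%, 44.1% and 24.9% passed by adjusted p alone. With YKL-5-124 against DMSO 2 were higher and 5 lower. STK3 (0.22 ± 0.054) and its adaptor SAV1 (0.22 ± 0.058) were higher, and LATS1 (-0.39 ± 0.068), STK4 (-0.30 ± 0.059), MAP4K4 (-0.33 ± 0.048), TAOK1 (-0.29 ± 0.057) and TAOK2 (-0.25 ± 0.049) were lower. With samuraciclib against DMSO 4 were higher and 2 lower. STK3 (0.48 ± 0.054), SAV1 (0.27 ± 0.058) and the LATS cofactors MOB1A (0.14 ± 0.052) and MOB1B (0.28 ± 0.069) were higher, and MAP4K4 (-0.21 ± 0.048) and TAOK2 (-0.23 ± 0.049) were lower. Between the inhibitors LATS1 (-0.27 ± 0.068), STK3 (-0.26 ± 0.053) and TAOK1 (-0.20 ± 0.057) were lower with YKL-5-124. The medians of the list were -0.016 with YKL-5-124 and 0.010 with samuraciclib over DMSO. TAOK3 passed in no comparison, with log2 values of -0.016, 0.010 and -0.026 for YKL-5-124 over DMSO, samuraciclib over DMSO and YKL-5-124 over samuraciclib.

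Of 27 upstream and junction regulators, which include AMOTL2 and AJUBA, YKL-5-124 gave 2 higher calls and samuraciclib 4, with 0 lower calls in either and median log2 changes of 0.12 and 0.25, where 11.9% of all tested genes were called higher with YKL-5-124 and 8.17% with samuraciclib. RASSF6, a scaffold that binds the MST kinases, averaged 12.4 ± 0.796 CPM with YKL-5-124, 14.4 ± 0.637 CPM with samuraciclib and 7.99 ± 0.458 CPM with DMSO, and was called with both. DCHS1, an atypical cadherin ligand of FAT4, was also called with both, at 2 to 16 counts a library (adjusted p = 0.0601 with samuraciclib when samuraciclib 1 was left out). AMOT (0.57 ± 0.21) and WTIP (0.52 ± 0.21) were called with samuraciclib (edgeR adjusted p = 0.0335 and 0.048), and their differences between the inhibitors, -0.08 ± 0.20 and -0.12 ± 0.20, did not pass the test. Leaving out DMSO 3 or samuraciclib 1 ended both of these calls, as did DMSO 1 or samuraciclib 2 for AMOT and DMSO 2 or samuraciclib 3 for WTIP (adjusted p = 0.0709 to 0.150 over all). AMOT was also not called in the 6 libraries without low 7SL RNA (0.45, adjusted p = 0.217), and DESeq2 called neither (adjusted p = 0.108 for AMOT and 0.0961 for WTIP). By adjusted p alone 9 genes were higher and 3 lower with YKL-5-124, where 24.1% and 25.2% of all genes were. With samuraciclib 13 were higher and 1 lower, where 21.0% and 23.1% of all genes were. Between the inhibitors 0 were called by edgeR, where 6.92% of all genes were, and 13 had an unadjusted p under 0.05. By adjusted p alone 0 were higher and 8 lower with YKL-5-124, where 11.8% and 13.2% of all genes were.

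SRF, its actin-sensing MRTF cofactors and their targets included genes called higher with each inhibitor. The list was not restricted to genes shared with YAP and TAZ. It does not hold FOS, FOSB or EGR1, which were counted with the AP-1 and EGR factors below, so its counts depend on how the lists were drawn up. Of 12 tested SRF and MRTF genes 4 were called higher with YKL-5-124 and 6 with samuraciclib, with 0 called lower in either and medians of 0.37 and 0.53. Of all tested genes 11.9% were called higher with YKL-5-124 and 8.17% with samuraciclib. By adjusted p alone 9 were higher and 0 lower with YKL-5-124, where 24.1% and 25.2% of all genes were. With samuraciclib 8 were higher and 1 lower, where 21.0% and 23.1% of all genes were. MYL9, a myosin light chain, averaged 58.1 ± 4.68 CPM with YKL-5-124, 86.5 ± 7.35 CPM with samuraciclib and 21.7 ± 1.27 CPM with DMSO. TAGLN, an actin-binding protein, averaged 39.9 ± 3.66 CPM with YKL-5-124, 56.6 ± 6.39 CPM with samuraciclib and 15.9 ± 1.54 CPM with DMSO. MYL9 was the 1 gene of the list called lower with YKL-5-124 than with samuraciclib (-0.58 ± 0.069, adjusted p = 1.35e-05), where 2.46% of all genes were.

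AP-1 and EGR factors, which often sit beside TEADs at YAP-bound enhancers, mostly ran the other way. Of 9 genes YKL-5-124 lowered 4 and samuraciclib 5 past the call threshold, and 0 were called higher in either comparison, with medians of -0.45 and -0.86. Of all tested genes 9.93% were called lower with YKL-5-124 and 9.55% with samuraciclib. By adjusted p alone 1 was higher and 5 lower with YKL-5-124, where 24.1% and 25.2% of all genes were. With samuraciclib 1 was higher and 7 lower, where 21.0% and 23.1% of all genes were. FOS averaged 167 ± 25.6 CPM with YKL-5-124, 176 ± 12.7 CPM with samuraciclib and 586 ± 107 CPM with DMSO. EGR1 averaged 74.0 ± 17.0 CPM with YKL-5-124, 85.5 ± 8.67 CPM with samuraciclib and 309 ± 55.4 CPM with DMSO. JUN (-1.32 ± 0.086 with YKL-5-124 and -0.94 ± 0.085 with samuraciclib) and FOSB (-0.86 ± 0.13 and -1.18 ± 0.14) were called with both. ATF3 was called with samuraciclib (-0.86 ± 0.13), and it was the 1 gene of the list called between the inhibitors, higher with YKL-5-124 (0.72 ± 0.13). Of all genes 4.46% were called higher in that comparison.

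The genes whose profile over the 9 libraries lay closest to a member were found from the root mean square (RMS) difference of log2 CPM centred on each gene, among 8909 protein-coding genes whose mean reached 10 CPM. CYR61 was closest to NIPA1 (RMS 0.038), PVR (0.041) and AKIRIN1 (0.043). CTGF was closest to TCF7L1 (0.080), PLK2 (0.083) and SHQ1 (0.085). YAP1 was closest to STAT3 (0.018), MAPK1IP1L (0.026) and RAP1GDS1 (0.027). The likeness is over libraries of 3 groups that share depth and scaling, and is given as a description.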

How the data were processed

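Counts of sequenced fragments per gene were deposited by the authors for 9 libraries of poly(A)-selected RNA. Per the submitters' processing notes and the methods, reads were aligned with HISAT2 to GRCh38 and counted with featureCounts 2.0.6. The annotation release and the strand setting are not given in the sources used here. The values are raw counts with no normalization. Counting error, which intervals on library spread include, weighs most on AJUBA and ANKRD1, the members with the fewest counts. The table also holds gene coordinates and lengths, which gave the levels per kb.

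Counts were tested in edgeR 4.0.16 (R 4.3.3) in 1 quasi-likelihood fit of all 9 libraries with group as the only term, TMM scaling and filterByExpr (minimum count 10), which kept 16065 of 58929 genes (25347 had no count). P-values were adjusted over all tested genes by the Benjamini-Hochberg method. Intervals are 95% intervals of the fit. The methods name 3 biological replicates per condition; replicate libraries differed by more than counting noise (chi-square per degree of freedom 3.11 to 15.9), so each was counted as 1 sample. The test was checked on simulated data.

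The members and gene lists were chosen with earlier results of these data known. Members and the genes of the coactivator, TEAD, VGLL and Hippo kinase lists are named whatever their values, and from each other list up to 4 called genes per comparison with the smallest adjusted p. Alternatives covered scaling (library size alone, RLE), filters, DESeq2 1.42.0, thresholds, the groups fitted, a replicate block and each library left out, and, chosen after seeing the data, the 6 libraries without low 7SL RNA.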

Additional observations from a re-analysis of the deposited data

How the results depend on the processing

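Over 144 repeats of the counts of members and signature genes, 119 stayed within 1.5 times the reported count and 25 moved, and no called gene changed direction. With library size alone, 0 members were called in YKL-5-124 against DMSO, 5 passed by adjusted p, and 2 passed between the inhibitors. With a mean count of at least 50, 0 members and 3 signature genes were called in YKL-5-124 against DMSO. By adjusted p alone, 3 members in YKL-5-124 against DMSO, 5 in samuraciclib against DMSO and 5 between the inhibitors were called, with 12, 14 and 12 signature genes and 7919, 7087 and 4003 of all genes, against 3506, 2847 and 1112 with the fold threshold. Testing against a log2 fold change of 0.5 (glmTreat) left 0 members in each comparison, 3, 3 and 0 signature genes and 1458, 982 and 71 of all genes. In the 6 libraries without low 7SL RNA, 0 members and 3 signature genes were called in YKL-5-124 against DMSO. Leaving out 1 library at a time gave 0 to 1 called members in YKL-5-124 against DMSO, 0 in samuraciclib against DMSO and 1 between the inhibitors, with 2 to 4, 4 to 5 and 3 to 5 members by adjusted p and 4 to 6, 4 to 6 and 2 to 3 signature genes. The replicate numbers did not pair the libraries as a whole: same-numbered libraries correlated at -0.049 to 0.159 in their deviations from group means, different-numbered ones at -0.106 to 0.141. The highest values, 0.137 to 0.159, were those among DMSO 3, samuraciclib 2 and YKL-5-124 2, the libraries low in 7SL RNA. The next highest was 0.084. The replicate numbers group samuraciclib 2 with YKL-5-124 2, the pair at 0.159, but not with DMSO 3. The replicate block thus covers what these libraries share only in part. With the replicate block, 1, 0 and 1 members, 3, 5 and 5 by adjusted p and 5, 5 and 3 signature genes were called, as without it, and 3494, 2825 and 1101 of all genes. With the block WISP2 in YKL-5-124 against DMSO no longer passed by adjusted p (0.0503), and STK4 in samuraciclib against DMSO (0.0448) and TEAD4, TPM1 and FOSB between the inhibitors (0.0468, 0.0130 and 0.0204) did. Over the 16 alternatives of each member, CYR61 with samuraciclib ranged from 0.20 to 0.31 and NUAK2 with YKL-5-124 against DMSO from -0.58 to -0.39. AJUBA and ANKRD1 were limited by depth. The causes of these differences were not tested.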
